A study of Drosophila melanogaster with 2 samples.

Results

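The chemoreceptor and odorant-binding protein genes of Drosophila melanogaster were taken as the protein-coding genes whose symbol is Or, Gr, Ir or Obp followed by a number, plus Orco, the co-receptor that odorant receptors share. The annotation held 231 such genes among 13945 protein-coding genes on the main chromosome arms, namely 60 Or genes with Orco, 60 Gr genes, 60 Ir genes and 51 Obp genes. Binding of Dp was mapped by ChIP-seq in 2 biological replicates, numbered 1 and 3, of whole embryos of both sexes aged 0 to 24 hours from a stable transgenic line that expresses Dp with GFP at its carboxyl end. They formed 1 group, with no untagged or mutant group, so no contrast between conditions exists. The labels call each library an input control and also name Dp as the target, which could not be reconciled, and they give each replicate its own biosample record but 1 fly line, without saying how the collections were kept apart. The deposited files gave peaks rather than reads, so read depth is unknown, and tissue identity could not be checked from them.

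Or proteins are odorant-gated ion channels that work together with Orco. Gr proteins detect sugars, bitter compounds and carbon dioxide, Ir proteins are relatives of ionotropic glutamate receptors that sense acids, amines, humidity and tastes, and Obp proteins are small soluble carriers secreted around sensory neurons. Each receptor is normally made in a small set of sensory neurons. Dp is the partner with which E2F factors contact DNA and a subunit of the DREAM complex, and in the adult antenna DREAM components have been implicated in confining the carbon dioxide receptor genes Gr21a and Gr63a to their neuron class.

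The sequences at the summits nearest to these genes are shown first because the results turn on which start each summit belongs to. Each is the forward strand of dm6, 5′ to 3′, read from the RefSeq genome, and was cut where an annotated untranslated region begins. In 4 of the 5 the window reached up to 100 bp to either side of the summit, which is base 101 of the window. For Ir76a, whose summit lies in its 5′ untranslated region, 30 bases across the start are given instead. Capitals mark the E2F core (TTCCCGC or TTCGCGC or TTGCCGC or TTGGCGC, here on the reverse strand), the DRE TATCGATA, bound by the factor DREF, and the CHR element (TTCGAA or TTTGAA), a site of DREAM complexes at cell cycle genes.
Gr63a, chr3L:3896750-3896899: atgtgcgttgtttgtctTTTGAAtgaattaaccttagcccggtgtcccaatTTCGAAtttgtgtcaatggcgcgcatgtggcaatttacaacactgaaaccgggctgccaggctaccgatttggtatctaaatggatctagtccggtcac
Obp93a, chr3R:21130090-21130215: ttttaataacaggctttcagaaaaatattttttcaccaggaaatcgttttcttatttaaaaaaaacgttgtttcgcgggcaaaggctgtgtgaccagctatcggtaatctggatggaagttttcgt
Gr97a, chr3R:26966764-26966929: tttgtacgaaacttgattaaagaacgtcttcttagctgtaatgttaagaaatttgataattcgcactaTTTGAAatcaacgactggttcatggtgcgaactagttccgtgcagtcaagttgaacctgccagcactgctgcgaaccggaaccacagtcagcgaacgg
Gr5a, chrX:5680201-5680401: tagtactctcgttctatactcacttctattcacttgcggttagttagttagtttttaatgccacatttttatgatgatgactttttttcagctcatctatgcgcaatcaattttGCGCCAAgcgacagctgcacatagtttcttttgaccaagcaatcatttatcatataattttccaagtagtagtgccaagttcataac
Ir76a, chr3L:19801316-19801345: aataaatctgcTATCGATAacataacggag

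Dp was found at few of these genes. The thresholded list, derived from both replicates, holds the 5828 peaks that passed the authors' limit on irreproducible discovery. A summit of this list lay within 500 bp of an annotated start for 8 of the 231 members (3.46%), against 42.2% of all protein-coding genes. The 8 were the gustatory receptor genes Gr5a, Gr63a and Gr97a, the ionotropic receptor genes Ir60b, Ir60e and Ir76a, and the odorant-binding protein genes Obp47b and Obp93a. By family this was 3 of 60 Gr genes, 3 of 60 Ir genes, 2 of 51 Obp genes and 0 of 60 Or genes. The count depended on the distance and the peaks used: 2 members (0.866%) were left within 250 bp, against 37.7% of all protein-coding genes. A start inside the peak interval left 4 (1.73%), against 38.3%, and the peaks above the median signal left 4 (1.73%), against 23.9%. With so few genes per family, the families were not compared by a test, and no set test was run between the members and other genes.

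The relaxed lists, which also take in the thresholded peaks, gave more members. In the relaxed list called on the pooled replicates, which holds 30000 peaks and background, 24 members (10.4%) had a summit at a start, against 60.3% of all protein-coding genes. A relaxed summit of both replicates was present for 16 members (6.93%), against 56.3% of all protein-coding genes. For this each replicate needed a summit within 500 bp of a start of the gene, and the replicate summits need not coincide. Replicate 1 gave 23 members (9.96%) and replicate 3 gave 24 (10.4%), against 60.5% and 59.8% of all protein-coding genes. In replicate 1 alone 7 members (3.03%) were found, against 4.23% of all protein-coding genes. In replicate 3 alone there were 8 (3.46%), against 3.53%. No list had a summit at a start for 199 of the 231 members (86.1%), and the same held for 4755 of the 13714 other genes (34.7%). Members with a relaxed summit of both replicates were in the thresholded list in 8 of 16 cases, against 5867 of 7836 other genes (74.9%).

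**Figure D1:**
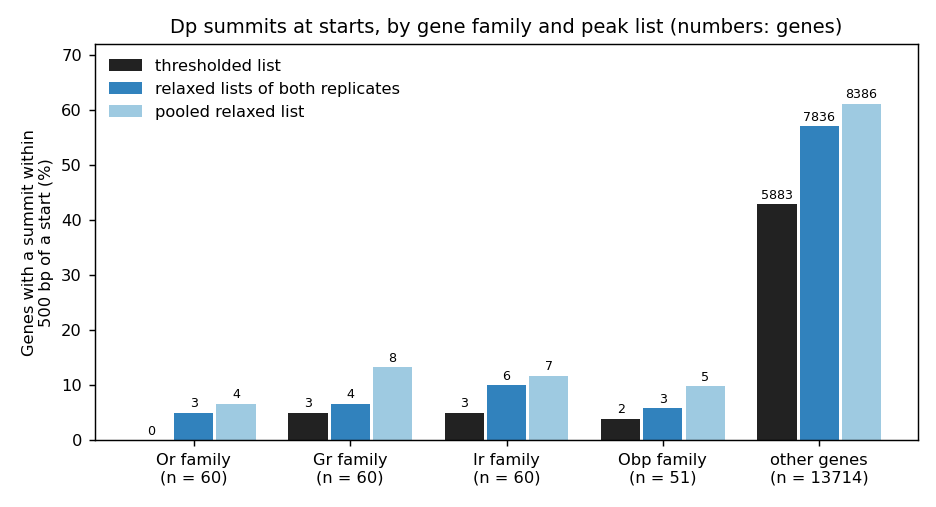
Share of genes with a summit within 500 bp of an annotated start (y axis, percent) in each family and in the other protein-coding genes (x axis), for the thresholded list, the relaxed lists of both replicates and the pooled relaxed list. Numbers over the bars count genes; all 4 families lie at or below 13.3%, and the other genes lie between 42.9% and 61.1%.

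The 8 peaks fell into a strong and a weak set. The peaks at Ir60e, Gr63a, Obp47b and Obp93a had pooled signal values, which are the authors' own and without a stated scale, of 6202, 6190, 5588 and 4138, at ranks 92, 96, 144 and 409 of 5828. Those at Ir60b, Ir76a, Gr97a and Gr5a had 350, 303, 257 and 242, at ranks 4424, 4841, 5269 and 5435, where the lowest value in the list was 213 and the median 639. No peak at a member lay between ranks 409 and 4424. The strong set was also wide, at 791 to 946 bp, against 259 to 525 bp in the weak set and a median of 543 bp over the whole list.

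Both replicates gave each of these peaks. Gr63a had a signal of 3414 in replicate 1 and 2810 in replicate 3, Ir60e 3501 and 2719, Obp47b 3006 and 2617, and Obp93a 2366 and 1785. Replicate 1 was the higher in all 4. In the weak set Ir60b had 228 in replicate 1 and 138 in replicate 3, Ir76a 145 and 158, Gr97a 118 and 152, and Gr5a 84.8 and 148, so that the replicates did not keep 1 order. The log2 ratio of replicate 3 over replicate 1 ran from -0.72 at Ir60b to 0.81 at Gr5a, with a median of -0.24, while over the 5821 thresholded peaks with a value in both the median was -0.18 and the standard deviation 0.48. Replicate summits lay at most 37 bp from the pooled summit. Gr5a had the least support, at rank 6659 in replicate 1, outside the 5828 strongest peaks of that replicate, and rank 5089 in replicate 3.

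**Figure D2:**
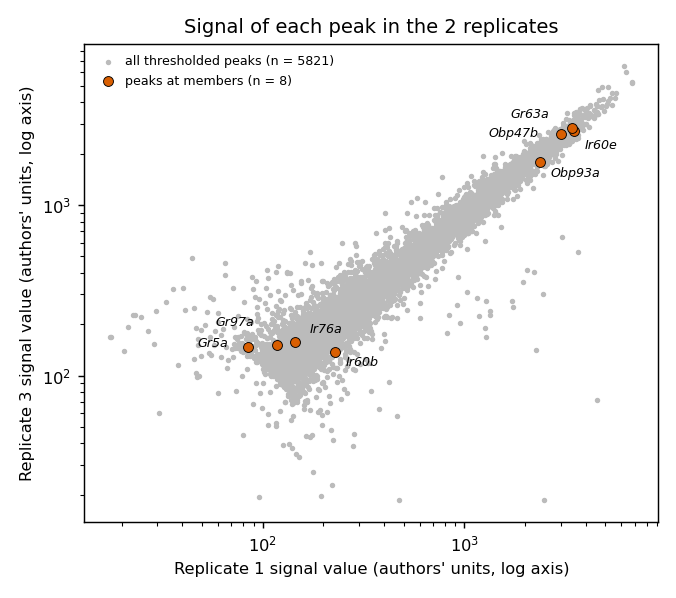
Signal value at each thresholded peak in replicate 1 (x axis) and replicate 3 (y axis), both on log axes in the authors' units. The value is that of the nearest replicate summit within 500 bp, so neighbouring peaks can share 1 value. Grey points are all 5821 peaks with a value in both, orange points the 8 peaks at members. Ir60e, Gr63a, Obp47b and Obp93a lie among the strongest peaks, and Ir60b, Ir76a, Gr97a and Gr5a among the weakest.

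Every one of the 8 summits also lay within 500 bp of a start of a gene outside the families, and in 6 that gene was the nearer. The summit counted for Gr63a, a subunit of the carbon dioxide receptor (FBgn0035468, 3L from 3894999 to 3896603, minus strand), was intergenic in a peak from 3896400 to 3897314. It lay 247 bp before the Gr63a start and 50 bp from that of Lamtor4, which encodes a subunit of the Ragulator complex of lysosomal nutrient signalling and is read in the opposite direction. The summit of Obp93a (FBgn0038859, 3R from 21128950 to 21129717), in a peak from 21129781 to 21130571, lay 473 bp from its start and 26 bp from that of Ice2, a factor of small nuclear RNA transcription. That of Gr97a (FBgn0041224, 3R from 26965124 to 26966485), in a peak from 26966719 to 26966978, lay 379 bp from its start and 66 bp from that of CG5521.

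The remaining 3 peaks nearer to another gene were on 2R. The summit of Ir60b, an ionotropic receptor gene of pharyngeal taste neurons (FBgn0259185, from 24515685 to 24517458), lay 353 bp from its start and 12 bp from that of Letm1, which encodes a cation exchanger of the mitochondrial inner membrane, in a peak from 24515196 to 24515487. That of Ir60e (FBgn0035019, from 24529554 to 24531272) lay 276 bp from its start and 46 bp from that of CG13585, in a peak from 24531181 to 24532081. Obp47b (FBgn0033614, from 11302247 to 11302987) sits inside CG7741, and its summit lay 479 bp from its own start, in a coding exon of CG7741 and 29 bp from an inner start of that gene, in a peak from 11302975 to 11303920. All 4 strong peaks therefore had a nearest start outside the families, at 26 to 50 bp.

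The 2 members that were the nearest gene, Ir76a and Gr5a, made up 0.866% of the 231, where 32.9% of all protein-coding genes were called when each summit was given to its nearest start alone. Ir76a, an amine-sensing receptor gene of the antenna (FBgn0260874, 3L from 19799278 to 19803427, plus strand), had the only summit inside a member's transcript among the 8, 6 bp after an inner start at 19801330 in a peak from 19801171 to 19801429. CG14102, which lies inside Ir76a, starts 39 bp away from that inner start on the opposite strand, so its own start was 45 bp from the summit. When only the outermost start of each gene was used, Ir76a no longer counted. The summit at Gr5a, the trehalose receptor gene (FBgn0003747, X from 5680617 to 5682488), was intergenic in a peak from 5679833 to 5680357, 316 bp before the Gr5a start and 324 bp before the start of Tre1. Tre1 encodes a G protein-coupled receptor that guides migrating germ cells, and it runs the other way. Without replicate 3 the Gr5a peak was not among the 5828 strongest, which left Ir76a alone as a member nearest its summit.

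In all 8 cases the starts of the member and the other gene nearest the summit were on opposite strands and pointed away from each other. At Obp47b and Ir76a this held for an inner start only, as CG7741 spans Obp47b and Ir76a spans CG14102. At Ir76a both starts lay on the same side of the summit. Over the whole list, 2044 of the 5107 summits at starts (40.0%) had such a divergent pair within 500 bp, and 2153 (42.2%) had starts of at least 2 genes there.

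**Figure D3:**
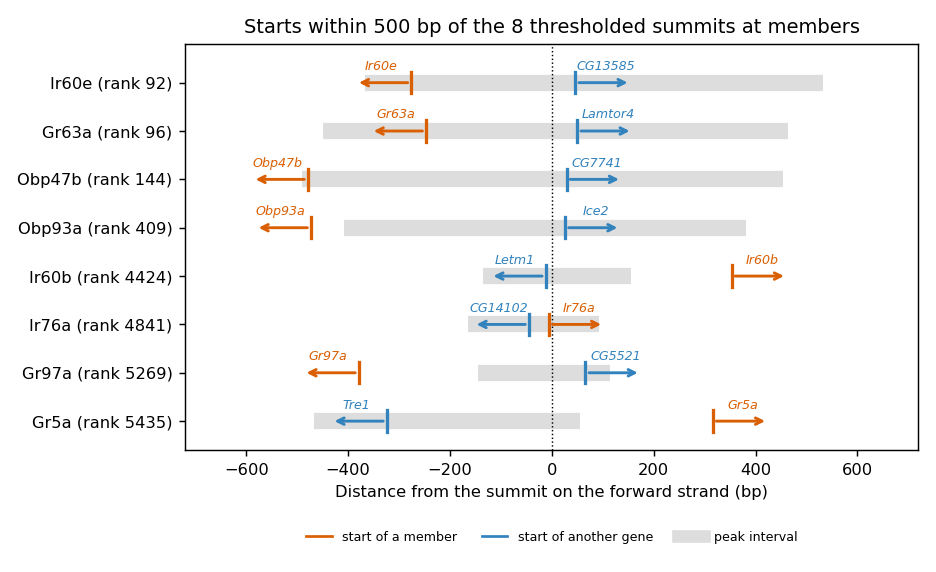
Starts within 500 bp of the 8 thresholded summits at members; the x axis is the distance from the summit in bp on the forward strand, rows run by rank, grey bars are peak intervals and arrows show the direction of transcription. In 6 rows the start of the other gene (blue) is nearer to the summit than that of the member (orange); Ir76a and Gr5a are the exceptions.

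Members that stand apart from other genes had no thresholded summit. The closest start of any other protein-coding gene was over 1000 bp away for 174 members (75.3%), and 0 of them had a thresholded summit, while 1962 of 7786 other genes at that distance (25.2%) did. With a start of another gene at 500 to 1000 bp, 2 of 27 members (7.41%) and 614 of 1649 other genes (37.2%) had one. With a start within 500 bp the counts were 6 of 30 members (20.0%) and 3307 of 4279 other genes (77.3%). The members had a lower share than the other genes at each of these distances. This was not particular to them. At over 1000 bp 0 of 105 cuticle protein genes and 2 of 69 cytochrome P450 genes (2.90%) had a thresholded summit. At 500 to 1000 bp these families had 2 of 10 (20.0%) and 1 of 7 (14.3%), and within 500 bp 1 of 5 (20.0%) and 2 of 7 (28.6%).

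**Figure D4:**
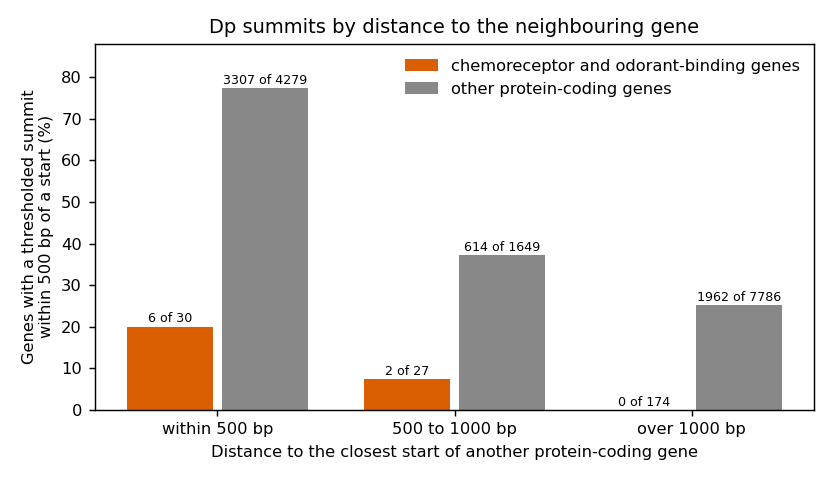
Share of genes with a thresholded summit within 500 bp of a start (y axis, percent), by distance to the closest start of another protein-coding gene (x axis), for the members and for the other protein-coding genes; labels give counts. The members lie at 20.0%, 7.41% and 0, and the other genes at 77.3%, 37.2% and 25.2%.

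The neighbours outside the families were counted in the same way. Of the 15 members with a start of a gene outside the families within 500 bp, 7 had a neighbour with a thresholded summit, and 6 of these members had one too. The exception was Gr94a, which lies inside p53, the damage response factor gene, and was 1838 bp from the closest thresholded summit. A neighbour counted through any of its starts. The summit counted for p53 was therefore not at its start 459 bp from Gr94a. The other 8, among them Gr61a beside JMJD5 and Ir31a beside LSm-4, had neighbours without a summit and none themselves. Since 1 summit can count for both genes of a close pair, these counts are not independent and are no result about the members. The same counts for close pairs among all protein-coding genes were not made. Where the outside start was over 1000 bp away, 51 of 197 members had a neighbour with a summit and 0 had one themselves. Another member held the closest start for 90 genes, and 0 of these had a summit in the thresholded or the pooled relaxed list, while all 24 members with a pooled summit were among the 141 whose closest start belonged to a gene outside the families.

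Members with less than 20000 bp between them formed 43 arrays with 128 genes, of which 3 had a thresholded summit, against 5 of the 103 members outside arrays and 42.2% of all protein-coding genes. Both counts were low. The 3 genes in arrays were Ir60b and Ir60e, which flank Ir60d, and Obp47b. Of the 43 arrays, 39 held no thresholded summit anywhere from their first to their last base. This was not counted for stretches of like length elsewhere, so it cannot be read as a trait of these arrays. The 6 genes Gr64a to Gr64f, receptors for sugars on 3L from 4026769 to 4037575, were 4544 to 8202 bp from the closest thresholded summit. Gr64a had a relaxed peak 180 bp from its start with a pooled signal of 34.1 and a replicate 3 signal of 19.9, and none in replicate 1. The 6 genes Obp56a to Obp56f were 27850 bp or more away.

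The distance to the closest thresholded summit had a median of 13484 bp for the members and 2011 bp for the other protein-coding genes. For cuticle protein genes the median was 17415 bp and for cytochrome P450 genes 9460 bp. Medians were 17088 bp for Or, 8434 bp for Gr, 14199 bp for Ir and 10115 bp for Obp genes, with ranges that overlapped widely. The closest thresholded summit was more than 10000 bp away for 132 members (57.1%), against 4036 other genes (29.4%). The same held for 68.3% of the cuticle protein genes and 47.0% of the P450 genes. Just inside the limit of 500 bp lay Obp93a at 473 bp and Obp47b at 479 bp. Just outside it, and within 1000 bp, were Or88a, a pheromone receptor gene, at 854 bp, Or67b at 865 bp, Obp28a at 912 bp and Or9a at 993 bp. These 4 summits were also nearer to other genes, namely CG12402, Cyp40, Ziz and Neb-cGP, and the one near Or9a ranked 170 with a signal of 5419.

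**Figure D5:**
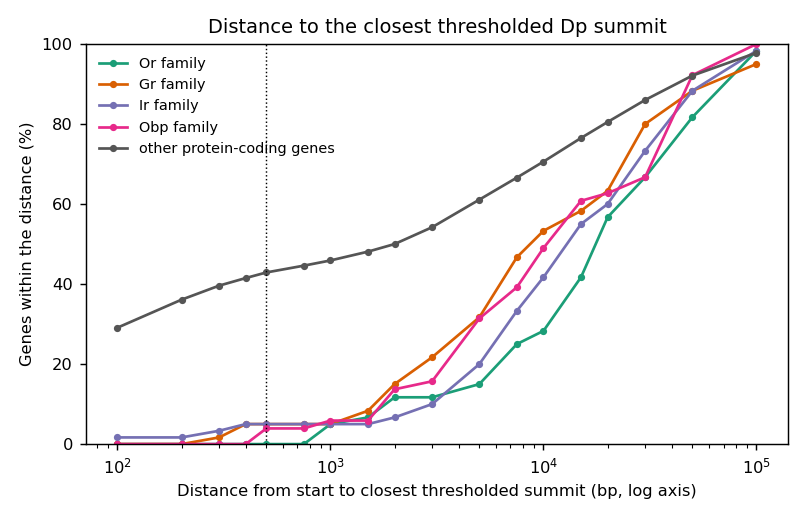
Cumulative share of genes (y axis, percent) by distance from a start to the closest thresholded summit (x axis, bp, log axis) for the 4 families and the other protein-coding genes; the dotted line marks 500 bp. At 500 bp the families lie at 0 to 5.00% and the other genes at 42.9%, and at 10000 bp the families reach 28.3% (Or) to 53.3% (Gr) and the other genes 70.6%.

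The co-receptors and most of the best known receptors were not close to a thresholded summit. Orco had none within 16602 bp, and the Ir co-receptor genes Ir8a, Ir25a and Ir76b had none within 4144, 2554 and 1724 bp. Ir25a had a pooled relaxed peak of 29.3, near the lowest value of that list, 26.2, and a replicate 1 peak of 17.7, with none in replicate 3. Gr21a, the other subunit of the carbon dioxide receptor (2L from 780482 to 782885), was 29263 bp from the closest thresholded summit and had no summit at its start in any list. The 2 genes that encode 1 receptor thus had different values, and the peak counted for Gr63a was nearer to Lamtor4. Of 8 sugar receptor genes listed, namely Gr5a, Gr43a and Gr64a to Gr64f, 1 (Gr5a) had a thresholded summit, and Gr61a, a sugar receptor gene outside that list, had relaxed summits only. Of the 4 bitter receptor genes Gr32a, Gr33a, Gr66a and Gr93a 0 had a thresholded summit. Gr66a had a pooled relaxed peak of 27.6 and none in either replicate, and Gr32a had a replicate 3 peak of 31.4 alone. Over all members the thresholded share was 3.46%, and over all protein-coding genes 42.2%. Lists this short cannot set the sugar or bitter receptor genes apart from the other members.

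The larval odorant receptor genes are part of the Or family, of which no member had a thresholded summit, so their count of 0 of 26 adds nothing to that of the family. In the pooled relaxed list 1 of the 26, Or7a, had a summit, against 60.3% of all protein-coding genes, with a signal of 34.7, 18.0 in replicate 1 and none in replicate 3.

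Members with relaxed summits of both replicates but none in the thresholded list were Ir31a, Gr61a, Obp99b, Or85f, Or46a, Ir54a, Ir85a and Or71a. Ir31a and Gr61a came closest to the thresholded list. Ir31a, a receptor gene of the antenna, had a pooled signal of 200 at rank 6006, with 111 in replicate 1 and 93.8 in replicate 3, and the pooled summit was 376 bp from its start and 14 bp from those of LSm-4 and CG17768. Gr61a, a sugar receptor gene, had 173 at rank 6478, with 101 in replicate 1 and 92.9 in replicate 3, and the pooled summit was 77 bp from its start and 14 bp from that of JMJD5. In replicate 1 the summit lay 11 bp from the Gr61a start and Gr61a was the nearest gene, while in replicate 3 it lay 82 bp from that start and 9 bp from that of JMJD5. Obp99b had 123, with 79.6 in replicate 1 and 41.8 in replicate 3, and was itself the nearest gene, at 241 bp.

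The other 5 had lower values. Or85f had 55.0 in the pooled list, 31.8 in replicate 1 and 25.4 in replicate 3. Or46a had 54.1 in the pooled list, 17.5 in replicate 1 and 30.1 in replicate 3. Ir54a had 49.7, 19.9 and 33.0 in the same lists, and Ir85a 28.3, 16.1 and 26.5. Or71a had 15.5 in replicate 1 and 17.6 in replicate 3 and no pooled summit at a start. Or85f and Or46a lay just above the median of the pooled list, 50.2, and Ir54a and Ir85a under it; that list holds background as well as peaks. The lowest values were 14.5 in the list of replicate 1 and 16.0 in that of replicate 3. Of the 16 members with a pooled but no thresholded summit, 13 were the nearest gene of their peak, counting Obp57d, which was tied with Cpr57A at 211 bp. The same share over all protein-coding genes was not computed. For 11 of the 16 no other gene had a start within 1000 bp, which leaves little room for a nearer gene.

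The E2F core lay within 100 bp of 2 of the 8 summits, the CHR element of 4 and the DRE of 2. Over all 5828 thresholded summits, windows of the same 201 bp held them in 18.9%, 49.3% and 14.5%, on either strand. The E2F core was at Ir60e and, printed above, at Gr5a, where its centre lay 17 bp from the summit. The strong Gr63a peak had 2 CHR elements, TTTGAA and TTCGAA, and no E2F core. The DRE at Ir76a spanned its inner start, 5 bp from the summit, and the other DRE was at Obp47b. Obp93a and Ir60b had none of the 3. A match describes the letters and does not show binding.

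The promoters of the members, taken as 250 bp before to 50 bp after the outermost start, rarely held the DRE. It was present in 1 of 231 (0.433%), against 1304 of 13714 other promoters (9.51%) and 187 of the 7831 other promoters without a thresholded summit (2.39%). The E2F core was present in 25 (10.8%), against 14.1% of the other promoters and 12.0% of those without a thresholded summit. The CHR element was in 37.2%, against 48.3% and 43.3%. Median GC content was 39.3% in the members, 38.0% in the other promoters and 40.0% in those without a summit.

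Among 22 other genes of the chemosensory system, of which 21 were matched, 2 had a thresholded summit, against the 42.2% of all protein-coding genes. They were Xbp1, a stress response factor gene, whose strongest peak had a signal of 493 with its summit 201 bp from a start and which had another summit at 1 bp, and ppk29, a pheromone-sensing channel gene, with a signal of 872 at 15 bp. The factor genes acj6, pdm3, ato and amos and the accessory genes lush, Snmp1 and Snmp2 had none.

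Cuticle protein and cytochrome P450 genes were taken for comparison as other tissue-restricted families that lie in tandem arrays. Thresholded summits were at 8 of 231 members (3.46%), against 3 of 120 cuticle protein genes (2.50%) and 5 of 83 cytochrome P450 genes (6.02%), both chosen by symbol. In the pooled relaxed list the shares were 10.4% of the members, 15.8% of the cuticle protein genes and 38.6% of the P450 genes, against 60.3% of all protein-coding genes. These shares were not compared by a test.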

How the data were processed

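Peaks of Dp-GFP ChIP-seq were deposited by the authors on dm6. There were relaxed lists for replicates 1 and 3, a relaxed pooled list and a thresholded list, derived from both replicates and cut on irreproducible discovery. The deposited descriptions name alignments of the replicates and of 1 control as their source. For aligner and peak caller, names and versions were not given in the sources used. Signal values are as the authors deposited them, on an unstated scale, and were ranked within a list only. The deposited −log10 q value was the same for all thresholded peaks. It varied in the relaxed lists, which were not filtered on it. Summits are the peak start plus the deposited offset, 1-based. Genes, starts and transcripts came from Ensembl release 115 (dm6 coordinates) and bases from the RefSeq genome of the same assembly.

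A gene was called where a summit lay within 500 bp of any annotated start; its value in a list is that of the strongest such peak, and a replicate's value at a thresholded peak that of the nearest relaxed summit within 500 bp. Motifs were searched on both strands, and a site in both directions counted once. With 1 group there is no contrast and no test was run. Members, lists and comparisons were chosen with earlier results of these data known; named genes were the members with a summit in both replicates, those within 1000 bp, the genes nearest their summits and fixed lists of known receptors and pathway genes; Gr94a, p53, Ir60d, Obp57d, Cpr57A and Obp56a to Obp56f were named after their values were seen. The promoter windows, the arrays and the divergent pairs were added after values were seen. Assignment and motif search were tested on simulated data. Python 3.11.15, numpy 2.4.6, pandas 2.3.3 and matplotlib 3.10.9 were used.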

Additional observations from a re-analysis of the deposited data

How the results depend on the processing

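Counts under other settings moved by over 1.5 times in 22 of 62 cases. Within 250 bp, 2 members were left (Gr63a and Ir76a), with 1 Gr, 1 Ir and 0 Obp genes, 13 members in the pooled list, 9 in both replicates, and 1 peak nearer to another gene. Within 1000 bp, 12 members were called, 3 of them Or genes, 11 of 13 peaks were nearer to another gene, and 3 of the 174 members standing apart had a summit. With nearest starts alone, 2 members were left, 1 Gr, 1 Ir and 0 Obp. A start inside the peak interval gave 4 members, with 1 Gr and 1 Obp gene, and the peaks above the median signal gave 4, with 1 Gr and 1 Ir gene. Members nearest a summit numbered 2 without replicate 1 and 1 without replicate 3. CHR was at 7 of the 8 summits within 250 bp. For the thresholded list, under the 8 alternatives of distance, assignment, strength and replicate, the share was 0.866% to 5.19% of members and 23.9% to 45.3% of all genes; all-gene shares were not recomputed for the relaxed lists. The causes were not tested. No paired analysis was possible because there is 1 group. Read depth is unknown, so a missing peak does not show absence of Dp, and binding in few cells of a whole embryo may not be detectable.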

Other observations

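There were 39 members that lay inside another protein-coding gene or shared its span. The count takes in pairs of members annotated with the same start and end. Of these 1, Obp47b inside CG7741, had a thresholded summit, against 3.46% of all members and 42.2% of all protein-coding genes. A pooled relaxed summit was present for 3, against 10.4% and 60.3%. The share among all genes inside another gene was not computed. A thresholded summit lay anywhere inside the gene for 2 of the 231 members (0.866%), against 1723 of 13714 other genes (12.6%). The share was 1.67% of the cuticle protein genes and 1.20% of the cytochrome P450 genes. Median gene length was 1506 bp in the members and 2191 bp in the other genes.

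By chromosome, 75 of the 231 members were on 2R (32.5%), where 20.5% of all protein-coding genes lie.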
